A study of Mus musculus with 6 samples.

Results

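Colec12, Pawr, Prkar2b and Gm31013 are 4 of the 54532 genes listed in a table of FPKM from mouse hearts. FPKM are fragments scaled to exon length and by a factor for each library. The 4 genes are also among the 14227 genes that reached an FPKM of 0.5 in at least 3 libraries. They were chosen by the same FPKM values that are described here, for a moderate difference between the groups and a similar level in each mouse of a group. The values, gaps and folds of these 4 genes are therefore given as a description, with no test. The 6 libraries came from left ventricular myocardium of male C57BL/6 mice that were 6 to 8 weeks old at the start. The 3 Chow mice received a chow diet for 12 weeks. The 3 HFpEF mice (a model of heart failure with preserved ejection fraction) received a high-fat diet with 60% of kcal from fat together with 0.5 g/L L-NAME, which blocks nitric oxide synthases, for 12 weeks. Diet and L-NAME were given together, so their contributions cannot be told apart, and each library came from a different mouse.

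The 3 protein-coding genes act at different places in a cell. Prkar2b encodes the type II beta regulatory subunit of protein kinase A, which holds the catalytic subunits inactive until cyclic AMP binds, and which anchoring proteins tether at defined sites. It is best known from fat and brain, whereas the heart mainly uses other regulatory subunits. Pawr encodes Par-4, a leucine zipper protein that binds atypical protein kinase C and is known for sensitising cells to apoptosis. Colec12 encodes collectin-12, a membrane-bound scavenger receptor with a C-type lectin domain that takes up modified lipoproteins and recognises sugars. Gm31013 is annotated as a long intergenic non-coding RNA, and no function is given here for it.

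By the GENCODE M21 annotation on GRCm38, Pawr (ENSMUSG00000035873) lies on the plus strand at chr10:108332121-108414240, with 1745 bases of exon in 7 blocks. Prkar2b (ENSMUSG00000002997) lies on the minus strand at chr12:31958476-32061296, with 3652 bases of exon in 12 blocks. Gm31013 (ENSMUSG00000111867) lies on the minus strand at chr9:30722035-30781479, and its 1 transcript has an exon of 170 bases and an exon of 545 bases, which makes it the shortest of the 4 on exon sequence. No exon of another annotated gene shared a base with an exon of the 4 genes. Processed pseudogene Gm47717, inside the body of Gm31013 on the same strand, had 0 to 10 reads per library.

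Promoter windows of RefSeq (GRCm38.p6, 250 bases before to 50 after a start) matched 3 of the 4 genes. The 150 bases before the first annotated base of each are shown because Gm31013 differs from Pawr and Prkar2b in base composition there. Capitals mark the GC box GGGCGG on either strand and the E box CACGTG. The stretches are chr10:108331971-108332120 (plus strand) for Pawr, chr12:32061297-32061446 (minus strand) for Prkar2b and chr9:30781480-30781629 (minus strand) for Gm31013.
Pawr: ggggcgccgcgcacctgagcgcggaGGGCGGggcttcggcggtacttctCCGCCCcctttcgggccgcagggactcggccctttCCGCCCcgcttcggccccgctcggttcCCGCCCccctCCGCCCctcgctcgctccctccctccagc
Prkar2b: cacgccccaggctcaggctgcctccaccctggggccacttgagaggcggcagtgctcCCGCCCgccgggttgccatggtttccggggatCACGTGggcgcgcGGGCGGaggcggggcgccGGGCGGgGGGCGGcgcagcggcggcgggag
Gm31013: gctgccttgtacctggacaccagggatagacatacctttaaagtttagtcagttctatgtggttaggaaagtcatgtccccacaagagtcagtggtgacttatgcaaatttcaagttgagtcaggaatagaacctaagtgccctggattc
Where RefSeq listed several windows for a gene, the window with the start nearest to that of GENCODE was used. The whole 300-base windows of Pawr and Prkar2b were each 75.0% G or C, above 96.1% of the 32851 windows in the table, and held 36 and 32 CpG dinucleotides against a median of 7. The window of Gm31013 was 47.0% G or C with 4 CpG dinucleotides, and the median over all windows was 52.7%. Pawr had 7 GC boxes in the window, 5 of them in the stretch shown. Prkar2b had 4 GC boxes and 1 E box. Gm31013 had 1 CCAAT box, which lies outside the stretch shown. GC boxes were present in 35.7%, E boxes in 7.15% and CCAAT in 37.4% of all windows. The letters TGACGTCA (the cyclic AMP response element, in 1.79% of windows), its core TGACG (20.8%, which includes every TGACGTCA), TATAAA (13.6%) and AGGTCA (16.3%) were searched on both strands and were in none of the 3 windows.

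The RNA-seq files gave 6 libraries of 13076772 to 16027084 gene-assigned reads, recovered from the steps of the deposited FPKM. Mitochondrially encoded genes took 24.0 to 26.0% of these reads in Chow, and 22.6%, 20.1% and 7.17% in HFpEF 1, 2 and 3, so that HFpEF 3 stood apart from the other libraries. Ventricular cardiomyocyte markers such as Actc1 (2445 to 5336 FPKM) were abundant in each library. Over all genes, 14 (0.0984% of those tested) had an adjusted p under 0.05 by limma, 6 of them (0.0422%) with an absolute log2 fold under 2. The 4 genes are among these 6, which the way they were chosen fixes, and the other 2 were Scd2 and Hspa1a. Leaving out HFpEF 3 gave 1169 such genes (8.22%) and leaving out HFpEF 2 gave 53 (0.373%), against 2 to 3 for the other libraries in turn.

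Colec12 (ENSMUSG00000036103) lies on the plus strand of GRCm38 at chr18:9707595-9882644, with 8725 bases of exon in 11 blocks. It was expressed at 6.13, 5.90 and 6.42 FPKM in Chow 1, 2 and 3, and at 13.1, 13.4 and 13.6 FPKM in HFpEF 1, 2 and 3. The 3 HFpEF hearts all lay above the 3 Chow hearts, and within each group the mice were closer to one another than for most genes. The means were 6.15 ± 0.261 and 13.3 ± 0.270 FPKM (SD, n = 3 each), a ratio of 2.17. The lowest HFpEF library exceeded the highest Chow library by 6.64 FPKM, which is 12.3 times the larger of the ranges within a group. Pairing any HFpEF library with any Chow library gave ratios from 2.03 to 2.31. On the log2(FPKM + 0.1) scale the difference was 1.10 (SE 0.09). This receptor had the deepest coverage of the 4 genes, with 604 to 762 reads in Chow and 1578 to 2293 reads in HFpEF.

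Pawr was expressed at 2.05, 1.81 and 2.42 FPKM in Chow 1, 2 and 3, and at 6.37, 5.31 and 6.70 FPKM in HFpEF 1, 2 and 3. The groups did not overlap, although both groups spread more widely than those of Colec12. The means were 2.09 ± 0.307 and 6.13 ± 0.728 FPKM (SD, n = 3 each), a ratio of 2.93. The gap between the nearest libraries was 2.89 FPKM, or 2.08 times the larger range. Ratios between pairs of libraries ran from 2.20 to 3.71, and the log2 difference was 1.51 (SE 0.15). Par-4 transcripts were read 37 to 51 times per Chow library and 154 to 226 times per HFpEF library.

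Prkar2b was expressed at 0.692, 0.747 and 0.679 FPKM in Chow 1, 2 and 3, and at 3.62, 2.59 and 2.68 FPKM in HFpEF 1, 2 and 3. This kinase subunit had the lowest level of the 4 genes in every library and the largest ratio between groups. The means were 0.706 ± 0.0358 and 2.96 ± 0.571 FPKM (SD, n = 3 each), a ratio of 4.19. The gap between the nearest libraries was 1.84 FPKM, or 1.78 times the larger range. Pairs of libraries gave ratios from 3.46 to 5.33, with HFpEF 1 at the top, and the log2 difference was 1.91 (SE 0.19). The Chow values rest on 30 to 36 reads per library and the HFpEF values on 160 to 189.

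Gm31013 went the other way, with 10.2, 12.2 and 10.8 FPKM in Chow 1, 2 and 3 and 4.85, 4.29 and 4.20 FPKM in HFpEF 1, 2 and 3. All HFpEF libraries lay below all Chow libraries. The means were 11.0 ± 1.00 and 4.45 ± 0.351 FPKM (SD, n = 3 each), so that the Chow mean was 2.48 times the HFpEF mean. The gap between the nearest libraries was 5.37 FPKM, or 2.76 times the larger range. Chow to HFpEF ratios of pairs of libraries ran from 2.11 to 2.90, and the log2 difference was -1.29 (SE 0.11). Because its exons are short, the FPKM of this non-coding RNA rest on 93 to 104 reads in Chow and 48 to 58 reads in HFpEF.

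**Figure D1:**
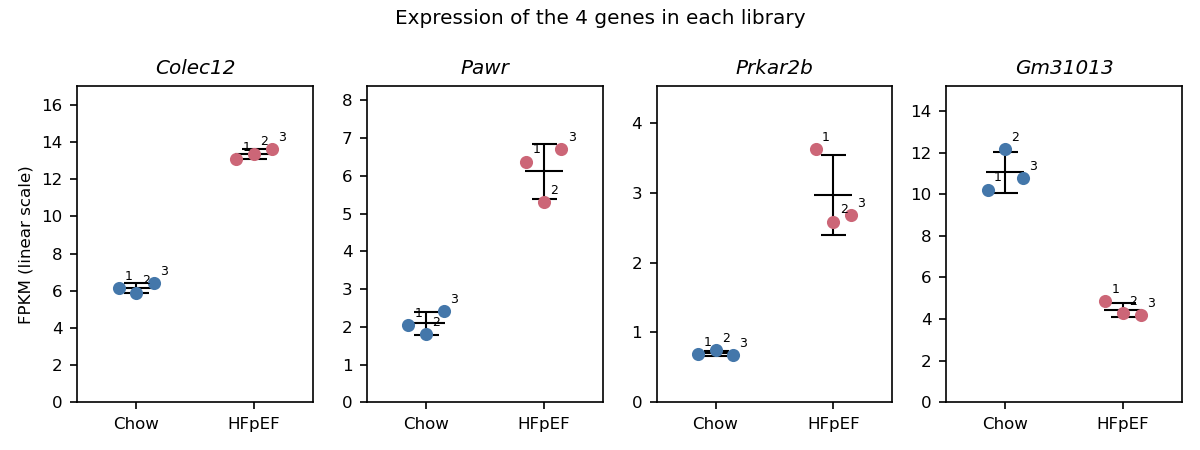
FPKM (linear scale, from 0) of each gene in each library; points are mice, numbered as the labels number them, the long bars are group means and the whiskers are 1 SD (n = 3). Colec12, Pawr and Prkar2b lie higher in HFpEF and Gm31013 lies lower, with no overlap between groups in any panel.

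Lack of overlap was frequent among all genes tested, and the count of 3 genes higher and 1 lower reads against that background. All HFpEF libraries lay above all Chow libraries for 15.5% of genes tested and below for 19.8%, and the 4 genes were chosen partly for that separation. The 4 differ more in how tight their groups are. The SD within groups on the log2 scale was 0.05 for Colec12, 0.12 for Gm31013 and 0.19 for Pawr and Prkar2b, beside a median of 0.23 over all genes tested. Only 1.16% of genes tested had a smaller SD than Colec12, against 17.0% for Gm31013 and 37.4% for Pawr and for Prkar2b. The absolute log2 fold was exceeded by 6.01% of genes for Colec12, 4.25% for Gm31013, 2.79% for Pawr and 1.42% for Prkar2b.

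**Figure D2:**
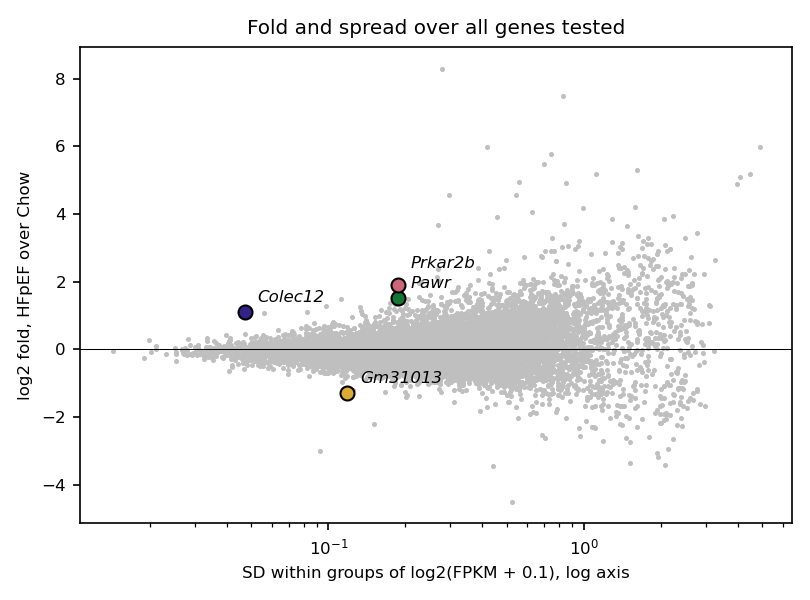
Log2 fold (HFpEF over Chow) against the SD within groups of log2(FPKM + 0.1), on a log axis; grey points are the 14227 genes tested and coloured points the 4 genes. Colec12 stands to the left at an SD of 0.05, whereas Pawr and Prkar2b sit at 0.19, nearer to the middle of the cloud.

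A spread between 3 mice cannot be read without the number of reads behind it. For Colec12 the coefficient of variation (SD as a percent of the mean) was 4.25% in Chow and 2.03% in HFpEF, and the number of reads alone would give 3.85% and 2.29%. The tightness of Colec12 was thus at the level of counting error in both groups. For Prkar2b in Chow the observed value was 5.07% where the reads alone would give 17.5%, so its 3 Chow libraries were nearer to one another than counting error predicts. In HFpEF the same gene varied by 19.3% where the reads alone would give 7.53%. Pawr varied by 14.7% in Chow and 11.9% in HFpEF, with 14.9% and 7.59% from the reads. Gm31013 varied by 9.08% and 7.89%, with 10.0% and 13.8% from the reads. Of the 8 groups, Pawr and Prkar2b in HFpEF stood above counting error by more than 1.5 times, and similarity between mice below counting error is not a property that these read numbers resolve. These expectations cover counting error only.

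**Figure D3:**
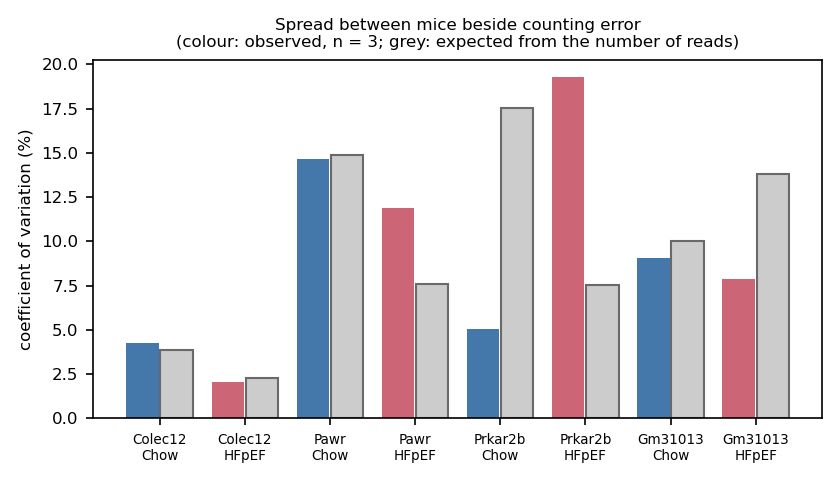
Coefficient of variation (%, from 0) of the 4 genes in each group; coloured bars are observed over 3 mice and grey bars are what the number of reads alone would give. The observed bar is well above the grey bar for Prkar2b in HFpEF (19.3% against 7.53%) and well below it for Prkar2b in Chow (5.07% against 17.5%).

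The order of the 4 genes by FPKM, a level per exon length, changed between groups. In each Chow library it was Gm31013, Colec12, Pawr and then Prkar2b. In each HFpEF library it was Colec12, Pawr, Gm31013 and then Prkar2b. Neighbours in either order did not overlap in FPKM over the 3 libraries of a group. Ratios within a library do not depend on how libraries are scaled. Colec12 was 0.485 to 0.600 times Gm31013 in Chow and 2.69 to 3.24 times in HFpEF. The corresponding ratios of Pawr to Gm31013 were 0.149 to 0.225 in Chow and 1.24 to 1.60 in HFpEF. Among the genes with higher levels in HFpEF, Pawr was 0.306 to 0.376 times Colec12 in Chow and 0.397 to 0.493 times in HFpEF, so that these genes did not keep a fixed ratio. Prkar2b was 0.281 to 0.413 times Pawr in Chow and 0.400 to 0.568 times in HFpEF, and here the groups overlapped.

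Genes with the most similar course over the 6 libraries were looked for among 12297 genes with a mean FPKM of at least 1, by the root mean square difference of the log2 ratios to the Chow mean. Nearest to Colec12 were Zfp185 (0.11), Cdon (0.11), a co-receptor of hedgehog signaling, and Igfbp6 (0.12), which binds insulin-like growth factors. Cdon was at 2.26 to 2.85 FPKM in Chow and 5.39 to 6.15 FPKM in HFpEF. Nearest to Pawr were Pla2g4a (0.14), the cytosolic phospholipase A2, the calcification inhibitor Mgp (0.16) and Zfp503 (0.16). Mgp was far more abundant per length than Pawr, at 79.8 to 102 FPKM in Chow and 221 to 270 FPKM in HFpEF. Nearest to Prkar2b were Mdfi (0.21), Abi3bp (0.23) and Hspa1a (0.23), an inducible heat shock protein 70 gene. Nearest to Gm31013 were Irx5 (0.13), a homeodomain factor of the ventricular wall, and the processed pseudogenes Fabp3-ps1 (0.14) and Gm5786 (0.16). Irx5 was at 3.23 to 3.73 FPKM in Chow and 1.32 to 1.59 FPKM in HFpEF. Reads of a processed pseudogene can come from its parent gene, so the values of the last 2 are uncertain. The differences were larger for the genes near Prkar2b than for those near Colec12.

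Among the protein kinase A genes, Prkar2b was a minor regulatory subunit by FPKM in both groups. It made up 0.521%, 0.533% and 0.471% of the summed FPKM of the 4 regulatory subunit genes in Chow 1, 2 and 3, and 2.67%, 2.21% and 2.07% in HFpEF 1, 2 and 3. The share was higher in each HFpEF heart than in any Chow heart, with means of 0.509% ± 0.0327 and 2.31% ± 0.314 (SD, n = 3 each). Prkar1a, the type I alpha subunit, held 83.0% ± 0.831 in Chow and 84.2% ± 2.62 in HFpEF, and the groups overlapped. Prkar2a, the other type II subunit, held 15.3 to 16.7% in Chow and 9.70 to 14.2% in HFpEF, with no overlap. Its level was 22.3, 21.6 and 22.1 FPKM in Chow and 19.3, 15.7 and 12.6 FPKM in HFpEF, lowest in HFpEF 3. Prkar1b held 0.463 to 0.813% in Chow and 0.768 to 1.24% in HFpEF, with overlap.

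The regulatory and catalytic subunits other than Prkar2b were not called by limma over all genes. Prkar2a had a log2 fold of -0.49 (SE 0.16, limma adjusted p = 0.159), Prkar1b 0.47 (SE 0.26, limma adjusted p = 0.319) and Prkar1a -0.11 (SE 0.12, limma adjusted p = 0.607). The sign of Prkar1a turned under quantile normalization (0.15). It also turned when libraries were scaled to genes not mitochondrially encoded (0.15), a scaling that moved the median log2 fold of all genes to 0.24. Of the catalytic subunits, Prkaca was at 102 to 106 FPKM in Chow and 86.6, 86.4 and 58.8 FPKM in HFpEF (log2 fold -0.45, SE 0.18, limma adjusted p = 0.201). Prkacb was at 9.46 to 9.94 FPKM in Chow and 10.5 to 12.5 FPKM in HFpEF (log2 fold 0.20, SE 0.10, limma adjusted p = 0.286). Of 31 protein kinase A genes other than Prkar2b, 25 were tested, and none had an adjusted p under 0.05 by limma, where 0.0984% of all genes did. Voom on the recovered reads put 0 of all 14227 genes under that threshold, so its adjusted p cannot separate any list from the rest. At an unadjusted p under 0.05, 1 was higher and 4 were lower by limma, beside 10.2% higher and 13.1% lower over all genes tested. The counts were the same by voom, beside 10.1% and 13.5% of all genes. Scaled to genes not mitochondrially encoded, 7 were higher and 1 lower, where 25.7% of all genes were higher and 4.24% lower, so the list moved with the genes as a whole. The median log2 fold was 0.02, beside -0.01 over all genes.

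Of 18 anchoring proteins tested, 1 was higher and 1 lower at an unadjusted p under 0.05, beside 10.2% and 13.1% of all genes. Akap1, which tethers the kinase to the outer mitochondrial membrane, was at 40.5, 41.8 and 37.9 FPKM in Chow and 29.1, 28.5 and 19.9 FPKM in HFpEF. Its groups did not overlap (log2 fold -0.65, SE 0.17, limma adjusted p = 0.119). Akap13 was at 6.69 to 7.29 FPKM in Chow and 7.90 to 8.60 FPKM in HFpEF (log2 fold 0.25, SE 0.09, limma adjusted p = 0.189). Without HFpEF 3, Akap1 (log2 fold -0.47, limma adjusted p = 0.0184) and Prkaca (-0.26, limma adjusted p = 0.0436) passed the threshold, 2 of 25 genes where 8.22% of all genes passed. Without Chow 1, Chow 2 or Chow 3 in turn, the genes at an unadjusted p under 0.05 numbered 1, 2 and 1 in place of 5, while the share over all genes went from 23.4% to 14.8%, 13.7% and 14.9%.

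Of 28 collectin and scavenger receptor genes other than Colec12, 17 were tested. None had an adjusted p under 0.05 by limma, where 0.0984% of all genes did. At an unadjusted p under 0.05, 8 were higher and 1 was lower by limma, beside 10.2% higher and 13.1% lower over all genes, and 7 and 1 by voom, beside 10.1% and 13.5%. The median log2 fold was 0.63, and 12 of the 17 were above 0. Without Chow 2 or Chow 3 the genes at an unadjusted p under 0.05 numbered 4 and 2 in place of 9, where 13.7% and 14.9% of all genes were called in place of 23.4%. The only other collectin tested, Colec11, a soluble one, had a log2 fold of -0.04. Lrp1, a large endocytic receptor, was at 17.7, 16.9 and 15.6 FPKM in Chow and 31.4, 26.7 and 52.8 FPKM in HFpEF (log2 fold 1.08, SE 0.25, limma adjusted p = 0.115). Its log2 fold was near that of Colec12, but its HFpEF libraries ran from 26.7 to 52.8 FPKM where those of Colec12 lay within 0.540 FPKM.

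Cd36, the fatty acid transporter of cardiomyocytes and endothelium, was the 1 gene of this list that was lower at an unadjusted p under 0.05. It was at 438 to 459 FPKM in Chow and 328, 343 and 249 FPKM in HFpEF (log2 fold -0.56, SE 0.17, limma adjusted p = 0.145). Stab1, an endocytic receptor of macrophages and sinusoidal endothelium, was at 12.3 to 13.8 FPKM in Chow and 16.5, 18.9 and 27.9 FPKM in HFpEF (log2 fold 0.63, SE 0.20, limma adjusted p = 0.153). Scara3, a class A family member, was at 1.22 to 1.54 FPKM in Chow and 9.01, 2.03 and 19.1 FPKM in HFpEF (log2 fold 2.30, SE 0.74, limma adjusted p = 0.155). Scara3 and Lrp1 were thus highest in HFpEF 3, as was Stab1. Without HFpEF 3, Lrp1 (0.79, limma adjusted p = 0.0151) and Cd36 (-0.41, limma adjusted p = 0.0173) passed the threshold, 2 of 17 genes where 8.22% of all genes passed. Without HFpEF 2, Scara3 did (log2 fold 3.18), where 0.373% of all genes passed. Of this list, Cd68 and Cd163 are also among the 8 macrophage markers, whose summed FPKM was 220 to 281 in Chow and 273, 370 and 909 in HFpEF 1, 2 and 3. The part of these cells in the list's values was not tested.

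Genes that bind, cleave or act with Par-4 numbered 25, all tested. None had an adjusted p under 0.05 by limma, where 0.0984% of all genes did. At an unadjusted p under 0.05, 2 were higher and 1 was lower by limma and by voom, beside 10.2% and 13.1% of all genes by limma. The median log2 fold was 0.07. Scaled to genes not mitochondrially encoded, 9 were higher and none lower, where 25.7% of all genes were higher and 4.24% lower. Vim, the intermediate filament protein vimentin, was at 54.1 to 61.3 FPKM in Chow and 170, 81.7 and 303 FPKM in HFpEF (log2 fold 1.47, SE 0.44, limma adjusted p = 0.143). Vim had nearly the log2 fold of Pawr with a far wider spread between HFpEF mice. Prkci, the atypical protein kinase C iota, was at 2.90 to 3.72 FPKM in Chow and 4.62, 3.77 and 5.46 FPKM in HFpEF (log2 fold 0.42, SE 0.17, limma adjusted p = 0.209). Wt1, a transcription factor that Par-4 binds and a marker of epicardium, was at 0.963 to 1.38 FPKM in Chow and 1.42, 3.49 and 1.75 FPKM in HFpEF (log2 fold 0.81, SE 0.34, limma adjusted p = 0.219). Prkaca, given above, is also on this list. Without Chow 1, 2 or 3 in turn 1 gene stood at an unadjusted p under 0.05 in place of 3, without HFpEF 2 there were 5 (14.8%, 13.7%, 14.9% and 24.5% of all genes), and without HFpEF 3 Prkaca passed at an adjusted p under 0.05, where 8.22% of all genes did.

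**Figure D4:**
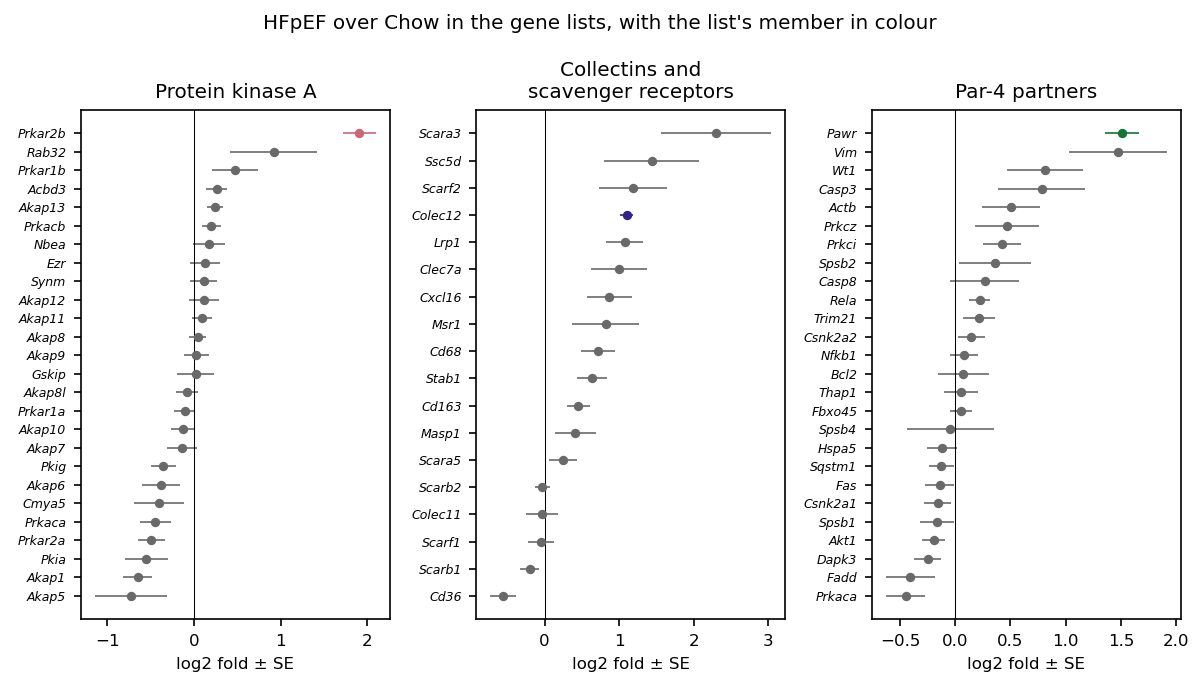
Log2 fold (HFpEF over Chow) with its SE for the tested genes of the 3 lists, ordered by fold, with Prkar2b, Colec12 and Pawr in colour. Prkar2b (1.91) stands apart from the other protein kinase A genes, whereas Colec12 (1.10) lies among receptors with similar folds and wider errors. The coloured genes were chosen for their difference between these same groups, so their place in a panel is a description only.

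Genes near the 4 loci gave no common direction. Within 500 kb of the 4 genes lay 70 other annotated genes of the table, 21 of them tested. None had an adjusted p under 0.05 by limma, where 0.0984% of all genes did. At an unadjusted p under 0.05, 2 were higher and 5 lower by limma, beside 10.2% and 13.1% of all genes. By voom, 4 were higher and 5 lower, beside 10.1% and 13.5%. Scaled to genes not mitochondrially encoded, 7 were higher and 1 lower, where 25.7% and 4.24% of all genes were. The nearest tested neighbour of Prkar2b was Hbp1, a transcriptional repressor 7941 bases away, at 9.04 to 9.51 FPKM in Chow and 6.79 to 8.02 FPKM in HFpEF (log2 fold -0.37, SE 0.10, limma adjusted p = 0.130). Next was Cog5, a Golgi complex subunit 20846 bases away (log2 fold -0.45, SE 0.15, limma adjusted p = 0.164). Hbp1 and Cog5 were thus lower in HFpEF where Prkar2b was higher. Gpr22 (log2 fold -1.03, SE 0.26, limma adjusted p = 0.119) and Bcap29 (log2 fold -0.47, SE 0.13, limma adjusted p = 0.128), farther from Prkar2b, had negative folds too. The 9 tested neighbours of Prkar2b were split in direction. Pik3cg (log2 fold 0.73, SE 0.32), Slc26a3 (0.88, SE 0.54) and Cbll1 (0.14, SE 0.15) had positive folds. Dus4l (-0.50, SE 0.23) and Ccdc71l (-0.06, SE 0.10) had negative ones.

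The nearest tested neighbour of Gm31013 was Adamts15, a versican-cleaving metalloprotease 117676 bases away. It was at 1.21, 1.22 and 1.54 FPKM in Chow and 2.85, 3.45 and 5.09 FPKM in HFpEF (log2 fold 1.42, SE 0.24, limma adjusted p = 0.0847), opposite in direction to Gm31013. Without HFpEF 3 it passed the threshold (log2 fold 1.19, limma adjusted p = 0.0202), 1 of 21 neighbours where 8.22% of all genes passed. Adamts8, 161083 bases away, was at 0.0761 to 0.699 FPKM in Chow and 0.527 to 0.870 FPKM in HFpEF, with overlap. The 1 tested neighbour of Pawr, Ppp1r12a, a myosin phosphatase subunit 47646 bases away, was at 8.14 to 9.30 FPKM in Chow and 9.39 to 13.8 FPKM in HFpEF (log2 fold 0.47, SE 0.16, limma adjusted p = 0.171). For Colec12, Thoc1 (75262 bases away) had a log2 fold of 0.15 (SE 0.10) and Usp14 (110422 bases away) -0.21 (SE 0.10), or 0.04 when libraries were scaled to genes not mitochondrially encoded, which is below the median of all genes under that scaling (0.24). Without Chow 1 or Chow 2 the neighbours at an unadjusted p under 0.05 numbered 4 in place of 7, where 14.8% and 13.7% of all genes were called in place of 23.4%.

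Markers of several cell types differed between the same libraries. In bulk tissue, a change in the number of cells of a type and a change in RNA per cell cannot be told apart. The 8 ventricular cardiomyocyte markers all lay below the Chow range in each HFpEF library, where 19.8% of all genes tested did. Of the 8, 0 had an adjusted p under 0.05 by limma. At an unadjusted p under 0.05, 4 were lower, beside 13.1% of all genes. Their summed FPKM were 15124 to 16644 in Chow and 10740, 11367 and 7235 in HFpEF 1, 2 and 3. The 8 fibroblast markers summed to 220 to 259 in Chow and 425, 494 and 5522 in HFpEF, and Col1a1 reached 2252 FPKM in HFpEF 3. The 7 atrial markers summed to 61.7 to 624 in Chow and 2798, 4162 and 113 in HFpEF, with Myl7 at 0.289 to 237 FPKM in Chow and 975, 2073 and 8.60 FPKM in HFpEF. Of the 13 marker lists, the fibroblast and atrial sums varied most between HFpEF hearts (coefficient of variation 136% and 87.4%). The endothelial sum varied least (4.10%). Colec12, chosen for a similar level in each mouse of a group, stayed within 13.1 to 13.6 FPKM in these hearts.

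Of 12 adipocyte markers, 9 were tested, and 4 of these had an adjusted p under 0.05 by limma, where 0.0984% of all genes did. Of the 12, 6 (Adipoq, Cfd, Cidec, Lep, Retn and Ucp1) had no read in any Chow library. Cfd, the adipokine adipsin, was listed at 0 in Chow and at 35.3, 37.8 and 22.9 FPKM in HFpEF. The summed adipocyte markers were 98.3 to 109 in Chow and 182, 189 and 118 in HFpEF. Most of the Chow sum was Fabp4, which went the other way. It was at 84.3 to 94.8 FPKM in Chow and 60.5 to 69.8 FPKM in HFpEF (log2 fold -0.49, limma adjusted p = 0.118). Of the 9 adipocyte markers tested, 6 lay above all Chow libraries and 1 below, where 15.5% and 19.8% of all genes did. A marker without reads in Chow could be tested only if all 3 HFpEF libraries reached 0.5 FPKM. Its place above Chow was then fixed by that filter, so the adipocyte counts are a description only. Mesothelial markers summed to 18.7 to 29.3 in Chow and 36.4, 131 and 58.6 in HFpEF, and Schwann cell and neuron markers to 3.65 to 5.25 in Chow and 7.56, 9.62 and 11.6 in HFpEF. Endothelial markers summed to 225 to 250 in Chow and 201, 185 and 195 in HFpEF. Of these 8 markers, 3 lay below all Chow libraries, where 19.8% of all genes did, and the median log2 fold was -0.19. Skeletal muscle markers, of which the heart also expresses Ckm and Acta1, summed to 494 to 595 in Chow and 337, 306 and 179 in HFpEF. Ckm made up most of the Chow sum (399 to 489 FPKM), and Acta1 overlapped between groups. The sums for smooth muscle and pericytes (318 to 358 against 233 to 705), lymphatic endothelium (28.6 to 58.7 against 34.2 to 49.2), red blood cells (280 to 1591 against 478 to 1813) and B, T and NK cells (1.05 to 3.54 against 1.53 to 5.69) overlapped between groups.

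Of the 13 marker lists, those for adipocytes, fibroblasts, mesothelium and Schwann cells and neurons had each HFpEF sum above the Chow range, as Colec12, Pawr and Prkar2b did. The lists for ventricular cardiomyocytes, endothelium and skeletal muscle had each HFpEF sum below it, as Gm31013 did. Single markers could differ from the sum of their list. Fabp4 went in the opposite direction to its sum, and Acta1 overlapped between groups where its sum did not. The part of these cell types in the levels of the 4 genes was not tested. Without HFpEF 3, the library with the highest fibroblast and macrophage sums and the lowest ventricular sum, the log2 folds were 1.09 for Colec12, 1.44 for Pawr, 1.97 for Prkar2b and -1.25 for Gm31013. Leaving out each library in turn gave 1.07 to 1.13, 1.41 to 1.61, 1.76 to 2.00 and -1.36 to -1.23 in the same order of genes.

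**Figure D5:**
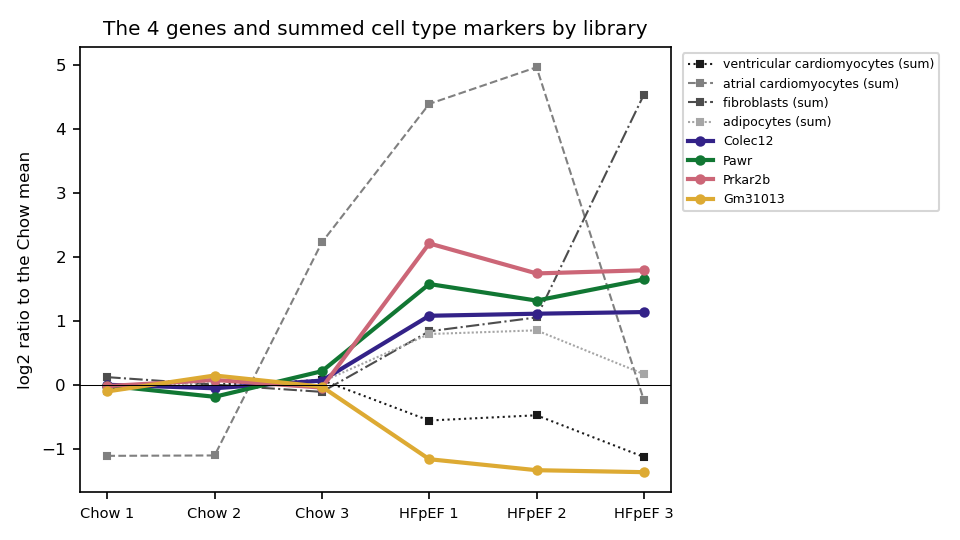
Log2 ratio to the Chow mean in each library for the 4 genes (solid lines) and for the summed FPKM of 4 marker lists (broken grey lines). The fibroblast sum leaps in HFpEF 3 and the atrial sum drops there, while the 4 genes stay near their level in HFpEF 1 and 2. The 4 genes were chosen for a similar level in each mouse of a group, so their steadiness is a description only.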

How the data were processed

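Left ventricular RNA from 3 Chow and 3 HFpEF mice was sequenced. Per the study's methods, HISAT2 was the aligner and featureCounts the counter. The values deposited by the authors are FPKM, 1 column per library; the annotation release, the strand setting and the FPKM formula are not given in the sources used here. Values were whole multiples of 1 read (relative tolerance 1e-06) for 96.1 to 96.2% of genes above 0 when exon lengths of GENCODE M21 were used, which matched 54495 of 54532 identifiers; totals were 13076772 to 16027084 reads. The deposited FPKM already carried a scaling between libraries. FPKM were rescaled by median-of-ratios factors (0.999 to 1.002), filtered at 0.5 FPKM in at least 3 libraries, and fitted as log2(FPKM + 0.1) with limma 3.58.1 in R 4.3.3 (trend, robust, Benjamini-Hochberg over all 14227 genes). The fit was tested on simulated data. The 4 genes and all lists were chosen with earlier results of these data known. Named genes were the 4, all protein kinase A regulatory and catalytic subunits, the 4 list genes with the smallest p, 2 nearest tested neighbours per gene (1 for Pawr), the 3 most alike genes per gene, and up to 2 abundant markers per list; Scd2, Colec11, Cd68, Cd163 and the adipocyte genes without reads in Chow were named after their values were seen. A symbol with several identifiers was taken as its most abundant one. The 16 alternatives are covered at the end.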

Additional observations from a re-analysis of the deposited data

How the results depend on the processing

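The 4 genes kept their direction under all 16 alternatives, which is a description and not a test. They were chosen partly for groups that do not overlap, which leaves little room for a turn when a library is left out. The settings of the filter, the moderation and the replicate block do not enter the log2 fold and returned it unchanged. Scaling to genes not mitochondrially encoded, which moved the median log2 fold of all genes by 0.25 and the share of higher genes at an unadjusted p under 0.05 from 43.8% to 85.8%, gave 1.36 for Colec12, 1.75 for Pawr, 2.14 for Prkar2b and -1.04 for Gm31013. A pseudocount of 1 gave 1.00, 1.20, 1.20 and -1.14, since it shrinks folds of low genes. Leaving out each library in turn gave 1.07 to 1.13, 1.41 to 1.61, 1.76 to 2.00 and -1.36 to -1.23 in the same order. Genes at an adjusted p under 0.05 numbered 14, against 77 with the mitochondrial genes left out of the scaling, 3 with a pseudocount of 1, 5 with 0.01, 33 without trend or robust moderation, 0 with voom on recovered reads (3361 at an unadjusted p under 0.05) and 2 to 1169 when a library was left out; the cause was not tested.

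Protein kinase A genes at an unadjusted p under 0.05 numbered 5, against 3 with quantile normalization, 8 with the scaling to genes not mitochondrially encoded, 3 without trend or robust moderation and 1 to 7 without a library; 0 to 2 had an adjusted p under 0.05 without a library. Scavenger receptor genes ranged from 2 to 11 (adjusted, 0 to 2) without a library. Par-4 partners numbered 9 with the mitochondrial genes left out of the scaling and 1 to 5 without a library (adjusted, 0 to 1). Neighbours numbered 4 to 7 without a library (adjusted, 0 to 1). The count over all genes moved too, from 3323 of 14227 at an unadjusted p under 0.05 to 2849 with quantile normalization. It was 4267 of 14245 with the scaling to genes not mitochondrially encoded and 3103 without trend or robust moderation. Without a library it ran from 1949 to 3571, and at an adjusted p under 0.05 from 2 to 1169. The list counts are read beside these.

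The labels give replicate numbers and no pairing of mice. Deviations of same-numbered mice had correlations of -0.04, -0.07 and -0.06. Whether same-numbered mice shared a batch is not given and was not tested. With the replicate number as a block in the limma fit, 2 genes had an adjusted p under 0.05. Before adjustment, p was below 0.05 for 3004 of 14227 genes in that fit. These included 3 of 25 protein kinase A genes, 1 of 25 Par-4 partners, 8 of 17 scavenger receptor genes and 8 of 21 neighbours. Depth limits Prkar2b in Chow (30 to 36 reads) most, then Pawr in Chow (37 to 51) and Gm31013 in HFpEF (48 to 58).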
